A study of Homo sapiens with 4 samples.

Results

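OGA regions of control naive cells that were annotated as promoter and ended short of the transcription start site, on its upstream side, numbered 873 of the 8977 distinct regions in the control list and of 10311 regions in both lists. They were chosen by annotation class and by a signed distance to the start site below 0, as the authors listed them. No member was filtered out, and every count below covers all 873 unless another number is given. OGA was mapped with an antibody by CUT&Tag, in which a transposase tethered to the antibody cuts and tags nearby DNA. The cells were H9, an established human embryonic stem cell line, kept in naive culture in PXGL medium (N2B27 with PD0325901, XAV939, Go 6983 and human LIF) on mouse embryonic feeder cells. There were 2 libraries from cells labelled OGA knockdown and 2 from cells labelled WT, called control here, all without further treatment. The labels do not say whether the knockdown cells were a clone or a pool, nor whether the replicates were separate cultures, and the remaining amount of OGA was not measured here. Each group was deposited as 1 list of regions that name a peak of both replicates, with no read count or signal, so the depth is unknown and no value of a region could be tested across libraries.

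O-GlcNAc is a single sugar that the transferase OGT adds to serine and threonine residues of nuclear and cytosolic proteins and that the hydrolase OGA removes. Many proteins at promoters carry it, among them RNA polymerase II, transcription factors such as SP1 and chromatin regulators. The stretch upstream of a start site holds the core promoter and proximal elements such as the TATA box, the CCAAT box and the GC box, and at mammalian genes it often lies within a CpG island, where CG dinucleotides are dense.

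The sequence just before the start site shows how close some of these regions came to it. The 250 bases that end just before the start are printed for 8 genes, from RefSeq promoter windows of build GRCh38.p14, with the bases inside the control OGA region in capitals. The gene strand runs left to right, and the lower-case bases on the right separate the region from the start site. SOX2, which encodes a core pluripotency factor, is shown from chr3:181711675-181711924 (+ strand), and DPPA3, a maternal-effect gene of naive cells, from chr12:7711183-7711432 (+ strand). E2F1, a cell cycle transcription factor gene, is shown from chr20:33686386-33686635 (- strand). HDAC1, a histone deacetylase gene, is shown from chr1:32291833-32292082 (+ strand), and KMT2A, a histone H3 lysine methyltransferase gene, from chr11:118436242-118436491 (+ strand). Those 5 had no knockdown region over the control region. The other three did: RPS19, a gene of the small ribosomal subunit, from chr19:41860005-41860254 (+ strand), REST, a repressor of neuronal genes, from chr4:56907650-56907899 (+ strand), and DNM2, which encodes the membrane-fission GTPase dynamin 2, from chr19:10717829-10718078 (+ strand).
SOX2: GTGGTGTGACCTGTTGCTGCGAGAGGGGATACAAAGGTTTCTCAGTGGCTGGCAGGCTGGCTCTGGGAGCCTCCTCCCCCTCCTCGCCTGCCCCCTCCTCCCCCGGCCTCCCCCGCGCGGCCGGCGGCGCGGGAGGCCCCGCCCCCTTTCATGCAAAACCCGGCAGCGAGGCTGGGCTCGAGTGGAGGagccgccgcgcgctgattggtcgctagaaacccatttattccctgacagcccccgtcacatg
DPPA3: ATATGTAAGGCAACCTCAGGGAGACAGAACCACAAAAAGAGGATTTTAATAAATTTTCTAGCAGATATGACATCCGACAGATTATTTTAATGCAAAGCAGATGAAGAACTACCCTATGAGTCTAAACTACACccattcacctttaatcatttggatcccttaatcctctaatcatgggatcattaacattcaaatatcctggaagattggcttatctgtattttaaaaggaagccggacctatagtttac
E2F1: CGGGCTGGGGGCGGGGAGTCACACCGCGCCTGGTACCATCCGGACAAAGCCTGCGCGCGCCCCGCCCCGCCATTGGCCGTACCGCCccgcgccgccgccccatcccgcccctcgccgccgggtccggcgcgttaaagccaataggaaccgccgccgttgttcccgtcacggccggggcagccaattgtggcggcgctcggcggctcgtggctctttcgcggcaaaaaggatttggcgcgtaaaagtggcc
HDAC1: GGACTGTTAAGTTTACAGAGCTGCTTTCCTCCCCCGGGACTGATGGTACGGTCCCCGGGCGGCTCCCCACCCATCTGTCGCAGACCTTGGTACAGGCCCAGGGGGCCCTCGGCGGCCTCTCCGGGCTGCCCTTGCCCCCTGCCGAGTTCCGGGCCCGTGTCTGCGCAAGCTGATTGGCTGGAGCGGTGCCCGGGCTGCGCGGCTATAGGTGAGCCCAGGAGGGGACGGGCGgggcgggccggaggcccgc
KMT2A: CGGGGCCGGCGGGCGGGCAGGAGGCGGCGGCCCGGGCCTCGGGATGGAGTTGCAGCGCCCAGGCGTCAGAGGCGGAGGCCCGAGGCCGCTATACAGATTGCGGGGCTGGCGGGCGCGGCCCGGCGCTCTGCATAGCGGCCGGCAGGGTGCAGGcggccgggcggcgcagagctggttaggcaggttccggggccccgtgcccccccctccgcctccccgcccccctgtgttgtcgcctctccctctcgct
RPS19: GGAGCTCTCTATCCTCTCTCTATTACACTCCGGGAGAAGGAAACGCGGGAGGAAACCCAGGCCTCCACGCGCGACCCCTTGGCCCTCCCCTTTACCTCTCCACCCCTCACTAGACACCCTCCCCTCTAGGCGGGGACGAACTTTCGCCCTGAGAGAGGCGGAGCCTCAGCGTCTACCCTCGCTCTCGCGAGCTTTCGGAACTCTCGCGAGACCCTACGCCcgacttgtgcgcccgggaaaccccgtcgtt
REST: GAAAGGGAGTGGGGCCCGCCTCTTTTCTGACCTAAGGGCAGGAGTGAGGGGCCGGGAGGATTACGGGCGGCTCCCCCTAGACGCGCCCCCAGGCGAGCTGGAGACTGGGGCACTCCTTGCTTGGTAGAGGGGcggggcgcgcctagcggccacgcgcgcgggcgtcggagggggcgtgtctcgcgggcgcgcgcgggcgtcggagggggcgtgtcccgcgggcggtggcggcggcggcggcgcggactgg
DNM2: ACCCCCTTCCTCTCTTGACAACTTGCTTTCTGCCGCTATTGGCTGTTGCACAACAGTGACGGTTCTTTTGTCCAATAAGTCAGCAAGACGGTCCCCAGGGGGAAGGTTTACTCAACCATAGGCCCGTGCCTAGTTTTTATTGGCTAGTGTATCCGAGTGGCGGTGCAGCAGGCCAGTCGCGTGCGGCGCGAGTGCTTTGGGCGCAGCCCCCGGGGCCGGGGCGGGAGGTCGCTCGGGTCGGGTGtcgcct
Region cover of the window was 188 bases at SOX2, 132 at DPPA3, 86 at E2F1, 231 at HDAC1, 153 at KMT2A, 220 at RPS19, 132 at REST and 244 at DNM2. The covered bases held the letters ATGCAAA, found in the octamer bound by OCT factors, at SOX2 and DPPA3 alone among the 8 genes. GGGCGG, the GC box, was within the covered bases at SOX2, E2F1, HDAC1, KMT2A, REST and DNM2. The RPS19 window held none of the 6 motifs searched.

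The members stopped at any distance within the promoter limit of 3 kb. The median gap between the nearer edge of a region and its start site was 736 bp, with quartiles of 153 and 1747 bp and a range of 1 to 2989 bp. Of the members, 486 (55.7%) lay within 1 kb of the start site, 219 (25.1%) between 1 and 2 kb and 168 (19.2%) beyond, against 360 (45.9%), 242 (30.8%) and 183 (23.3%) of the 785 promoter regions on the downstream side. The centres of the upstream regions lay a median of 1672 bp from the start site and the far edges a median of 2529 bp. The members nearest to a start site were at UBE2Z, a ubiquitin-conjugating enzyme gene, at NF2, which encodes the tumour suppressor merlin, and at ZFP64, each 1 bp away, and among the next were SMARCC1 and PPARD at 2 bp. Just outside the rule, regions at PDXP, KHSRP and PDCD2 covered the start site by a single base and are start-spanning. At the far limit CD99L2 (2989 bp), ZCCHC7 (2970 bp), LOC105371688 (2961 bp), MRS2 (2957 bp) and PLS3 (2947 bp) were inside, and a region 3006 bp upstream of LOC107985315 was outside.

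**Figure D1:**
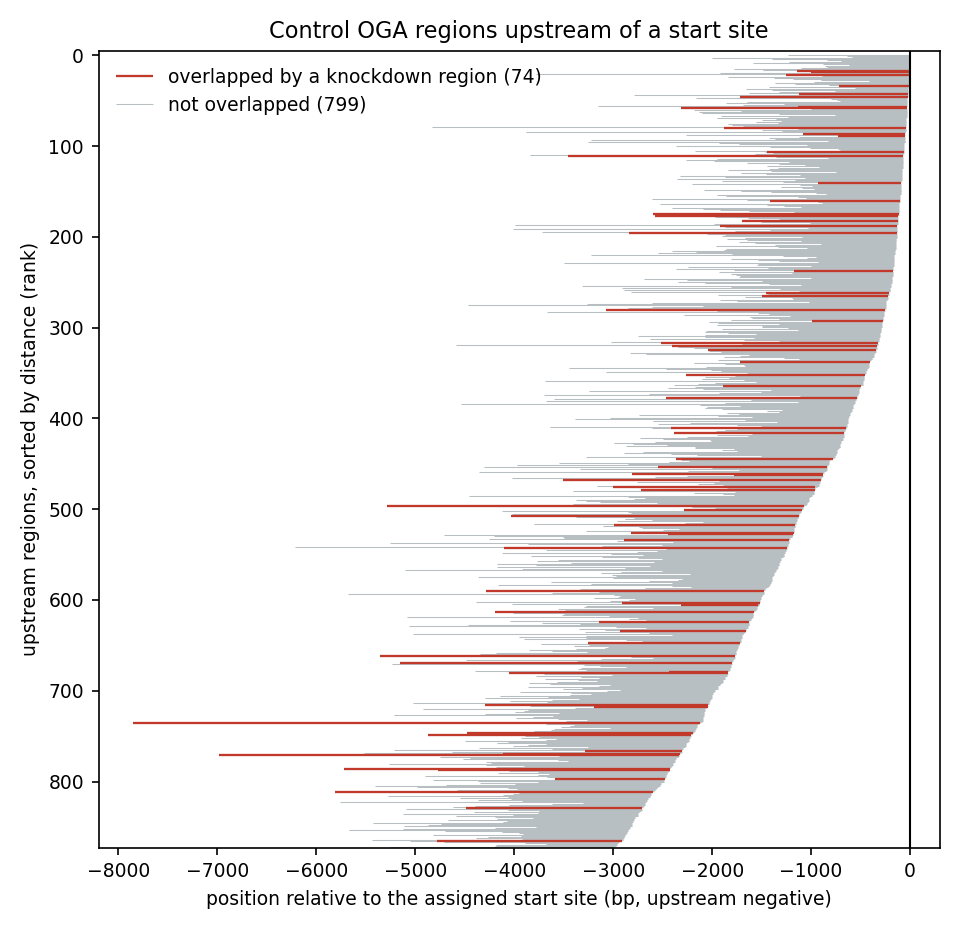
Each line is an upstream control region, drawn from its far to its near edge against the distance from the assigned start site (bp, upstream negative) and sorted by distance. The 74 regions overlapped by a knockdown region (8.48%, against 10.0% of all control regions) lie at all distances among the 799 that were not.

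Promoters with an upstream region were richer in G and C than those whose start site was covered by a region, mainly where the upstream region ended within 1 kb. The windows compared span 250 bp before to 50 bp after a start site. Only genes whose listed start equals the start in the RefSeq promoter table to the base were used. These were 324 of the 610 members found in the RefSeq promoter table. Only 141 of the 324 reached into the window, so most windows hold no base of their upstream region. The 324 members gave 318 windows. Their median GC content was 69.7% (quartiles 61.4 and 74.7), against 61.0% (56.7 to 65.3) for 1093 windows of start-spanning regions, 65.3% (57.7 to 72.0) for 238 windows of downstream regions and 58.3% (46.7 to 67.7) for all 27326 windows. The median number of CG dinucleotides was 30 in upstream windows, 22 in start-spanning, 25 in downstream and 14 in all windows. Among protein-coding genes alone the medians were 70.0% for upstream, 61.3% for start-spanning and 66.7% for downstream windows, and 62.7% for all windows.

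Windows at the GC-rich end were then counted. A GC content of at least 75%, a limit set after the values were seen, was reached by 77 of 318 upstream windows (24.2%, Wilson 95% interval 19.8 to 29.2), 8 of 1093 start-spanning windows (0.732%, 0.371 to 1.44), 33 of 238 downstream windows (13.9%, 10.0 to 18.8) and 9.24% of all windows. Read the other way, of the 2524 windows in the table at or above 75% GC, 3.05% had an upstream region and 0.317% a start-spanning region. Of the 7258 windows between 60 and 70% GC, 1.27% had an upstream region and 7.58% a start-spanning region. The upstream and start-spanning shares were close between 70 and 75% GC, at 2.85% upstream and 2.70% start-spanning. A window counted here as having a region only if the listed start equalled its own start to the base. That held for 53.1% of upstream and 53.7% of start-spanning regions found in the table, so each of these shares is a lower limit. GC content also moved with distance: the median was 72.0% where the region ended within 250 bp (141 windows) and 73.7% at 251 to 1000 bp (60 windows), but 62.3% at 1001 to 2000 bp (67 windows) and 62.7% at 2001 to 3000 bp (56 windows). The 26 windows of members overlapped by a knockdown region had a median of 71.7%. Genes within a class share a list and are not replicates, so these shares are descriptions with no test. How sequencing recovery varied with GC content was not tested, since no read counts were used here.

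**Figure D2:**
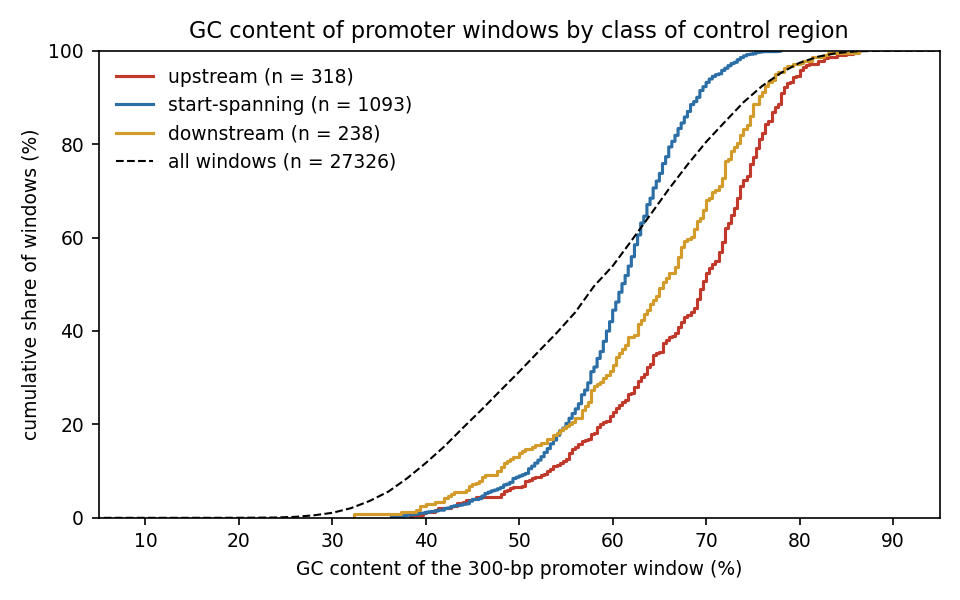
Cumulative share of promoter windows (%) against their GC content (%) for upstream, start-spanning and downstream control regions and for all windows of the table. The upstream curve lies furthest to the right, with a median of 69.7% against 61.0% for start-spanning windows, and 0.732% of start-spanning windows reach 75%.

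Promoter motifs were counted in the same windows. Each motif was searched on both strands, and none of the 6 holds another. GGGCGG was in 76.1% of upstream windows (71.1 to 80.5), against 66.1% of start-spanning, 65.5% of downstream and 44.6% of all windows. The upstream share was 87.9% (81.5 to 92.3) where the region ended within 250 bp of the start and 78.3% at 251 to 1000 bp. It was 59.7% at 1001 to 2000 bp and 62.5% at 2001 to 3000 bp, both below the start-spanning share. CCAAT, the box bound by NF-Y, was in 35.2% of upstream windows (30.2 to 40.6), close to 35.7% of all windows and to 35.3% of downstream windows, whereas 50.2% of start-spanning windows held it (47.3 to 53.2). The TATA box letters TATAAA were in 5.66% of upstream, 6.22% of start-spanning and 11.9% of all windows. TGCGCA, found in NRF1 sites, was in 9.75% of upstream, 15.9% of start-spanning and 8.41% of all windows. Its upstream share was 14.2% (9.37 to 20.9) within 250 bp and 10.0% at 251 to 1000 bp. Beyond that it was 2.99% at 1001 to 2000 bp and 5.36% at 2001 to 3000 bp. CACGTG, the E-box of MYC and USF factors, was in 10.1% of upstream, 10.8% of start-spanning and 7.44% of all windows. ATGCAAA was in 5.03%, 4.57% and 4.52% of the same 3 sets. GGGCGG is made of G and C alone, and its share was not separated from GC content. A motif match is a description of the letters and no evidence of binding.

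Few genes of upstream regions had a close divergent neighbour. In 68 of 610 cases (11.1%, 8.89 to 13.9) the next start site on the upstream side belonged to the opposite strand and lay within 5 kb, against 28.0% of start-spanning regions (26.1 to 30.0), 20.7% of downstream regions and 20.4% of all genes of the table. With protein-coding neighbours only the shares were 3.67%, 18.3%, 13.3% and 12.8%. The rule itself lowers this share, because a region that covers the start site of a divergent partner is annotated to that partner as start-spanning. The listed start was often not the start held for the gene in the RefSeq promoter table. Of the 610 members in the table, 176 were assigned to a start further upstream and 110 to a start further downstream along the gene. Many of these differences were small: with equal starts included, 420 of the 610 listed starts lay within 100 bp of the start in the table. A region before a start further downstream can lie within the gene. The DNMT3A member lay before the start of another RefSeq transcript, 28013 bp downstream of the start in the table. The SREBF1 member likewise lay before a transcript start 13356 bp downstream.

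Most members were the only promoter region of their gene. The 873 regions were assigned to 845 genes, of which 819 had 1 upstream region, 24 had 2 and 2 had 3. A start-spanning control region was present at 120 of the 845 genes (14.2%) and a downstream promoter region at 72 (8.52%), together 181 genes (21.4%, 18.8 to 24.3). By comparison 9.24% of 2501 genes with a start-spanning region and 23.9% of 767 genes with a downstream region had a promoter region of another class. With control regions outside promoters included, 349 genes (41.3%) had a further region. The next control region lay a median of 15535 bp from a member and within 5 kb of 281 members (32.2%, 29.2 to 35.4), against 24418.5 bp and 21.4% for start-spanning regions and 10464 bp and 41.0% for downstream regions. The 2 genes with 3 upstream regions were LEMD2, an inner nuclear membrane protein gene (2094, 1376 and 865 bp wide), and SLC23A2, an ascorbate transporter gene (1516, 1154 and 1062 bp). At each of these genes the 3 regions were assigned to different transcript starts, not all to the same start. A knockdown region overlapped 0 of those 6 regions, which for so few is near the 8.48% of all members. Both sides of the same start site carried a region at 16 genes in control and at 0 in the knockdown list. The knockdown list held far fewer such regions, 152 upstream and 105 downstream, against 873 and 785 in control, so the counts are not comparable. The gap between the flanking control regions was 145 bp at B3GALT4, a glycosyltransferase gene, and had a median of 2720 bp.

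Upstream regions were slightly narrower than other control regions. Their median width was 1512 bp (quartiles 1178 and 1935, range 405 to 5733), against 1591.5 bp for start-spanning, 1545 bp for downstream and 1577 bp for all control regions. The rule bears on width near the start, where a wider region would reach it: the median was 1368.5 bp for members within 250 bp and 1607.5 bp for those beyond 2 kb. Both control libraries gave at least 1 peak to every member. A member was made of more than 1 peak in replicate 1 in 27 cases (3.09%) and in replicate 2 in 14 cases (1.60%), against 3.92% and 1.94% of all control regions.

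Most members lay at protein-coding genes. Protein-coding genes took 673 of the 873 regions (77.1%, 74.2 to 79.8), against 82.7% of start-spanning regions, 71.0% of downstream regions and 68.9% of all control regions. Long noncoding RNA genes took 96 (11.0%), against 10.1% of start-spanning, 12.9% of downstream and 16.0% of all control regions. MicroRNA genes took 25 (2.86%), against 2.65% of all control regions. Pseudogenes not labelled as transcribed took 39 (4.47%, 3.28 to 6.05), against 0.587% of start-spanning, 3.82% of downstream and 5.70% of all control regions. Transcribed pseudogenes, counted apart, took 9 (1.03%), against 0.744% of start-spanning, 0.637% of downstream and 1.04% of all control regions. By chromosome the share of control regions that lay upstream of a start was 15.0% on chromosome 19 (89 of 595, 12.3 to 18.0) and 16.5% on chromosome 21 (13 of 79, 9.88 to 26.1), against 9.72% over all control regions and 5.31% on chromosome 4 (13 of 245).

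Among the gene lists used, polycomb and DNA methylation genes and pluripotency genes had the most upstream regions for their size. Of all 20056 protein-coding genes 648 had an upstream control region (3.23%). Polycomb and DNA methylation genes had 8 of 28. The widest was at PHC1, a subunit of polycomb repressive complex 1, on chromosome 12 from 8911049 to 8914440 (3392 bp, 69 bp from a start site). That listed start lay 666 bp downstream of the PHC1 start in the RefSeq promoter table, and the region covered the latter. AEBP2 and JARID2, accessory subunits of polycomb repressive complex 2, had regions of 1931 bp and 1441 bp, 876 and 1987 bp upstream. DNMT3B, a de novo DNA methyltransferase, had a region of 1930 bp at a distance of 2809 bp. RBBP7, PCGF3, DNMT3L and DNMT3A completed the list, with widths of 1208 to 1307 bp. Knockdown regions overlapped those of PHC1, AEBP2 and DNMT3L, 3 genes of 8, where 8.48% of all members and 10.0% of all control regions were overlapped. A start-spanning region was present at 9 of the 28 genes, against 2060 of the 20056 protein-coding genes, and a promoter region of any class at 17, against 2983. JARID2, DNMT3L, DNMT3A and DNMT3B are also in the pluripotency lists, so these lists share members.

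Pluripotency genes with upstream regions differed in where the region lay. Core pluripotency genes had 3 of 14: SOX2 (1356 bp, 63 bp from the start site), JARID2 and PRDM14, a transcriptional repressor of the germ line and naive state, 2691 bp upstream. Naive genes had 5 of 26 in the reference. FGF4, a growth factor gene, had the widest region (2423 bp, 1623 bp upstream). DPPA3 had 2 regions, 2144 and 1384 bp wide, whose near edges lay 2003 and 119 bp from the start site and which were separated by 501 bp. NLRP7, a maternal-effect gene, and GDF3, a TGF-beta ligand gene, had regions 1513 and 2299 bp upstream, and both genes also had a start-spanning region. DNMT3L, a catalytically inactive partner of the de novo methyltransferases, had a region 1181 bp upstream and was the naive gene with a knockdown overlap. Primed genes had 3 of 17, at DNMT3B, DNMT3A and LEFTY1, an inhibitor of NODAL signalling, and all 3 also had a start-spanning region. Start-spanning regions were at least as frequent in these lists, at 5 core, 5 naive and 4 primed genes, against 3, 5 and 3 with an upstream region. Downstream promoter regions were at 4 core, 2 naive and 1 primed genes. Of the core list 11 genes had a promoter region of any class and of the naive list 10.

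Chromatin and cell cycle regulators followed. Chromatin remodelling and histone modification genes had 5 of 37, and at SMARCC1, a core subunit of the BAF remodelling complex, the region (1996 bp) ended 2 bp from the start site. KAT5, an acetyltransferase gene, had a region 2078 bp upstream, and KMT2A, BRD2 and HDAC1 had theirs at 98, 83 and 20 bp. Cell cycle and replication genes had 4 of 31, among them MYBL2 (1855 bp wide, 117 bp upstream), E2F1 (1369 bp, 165 bp) and E2F3 (1346 bp, 79 bp). A start-spanning region was present at 10 of these 31 genes and at 4 of the 37 chromatin genes. Of the genes of both lists with an upstream region, 0 had a knockdown region over the upstream region, which for so few genes is near the 8.48% of all members.

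Other lists had fewer. Cytosolic ribosomal protein genes had 6 of 86, the widest at RPL23 (1847 bp), RPL13 (1581 bp), RPS21 (1396 bp) and RPS7 (1278 bp), against 25 of 86 with a start-spanning region. Splicing factor genes had 2 of 32, HNRNPC and HNRNPR, against 15 with a start-spanning region. Replication-dependent histone genes had 1 of 69, at H2AC16, against 31. Zinc finger genes had 13 of 563, the widest at ZNF628, ZNF398, ZNF385A and ZNF98 (3141 to 2067 bp), and solute carrier genes 11 of 380, the widest at SLC35F6, SLC2A4, SLC35F2 and SLC3A2. Respiratory chain genes had 2 of 166, UQCR11 and NDUFB7. Glycolysis genes had 1 of 20, PKM, a pyruvate kinase gene, and germ layer genes 1 of 16, TBX6. Transfer RNA genes had 6 of 506, with the widest at TRK-TTT3-3 (2429 bp), TRL-CAG2-1, TRT-CGT2-1 and TRA-CGC1-1. Small nuclear RNA genes and their copies had 3 of 2156, at RNU6-929P, RNU6-1316P and RNU6-23P, and snoRNA genes 2 of 573, at SNORD3J and SNORD13C. Trophectoderm (19 genes), fibroblast (16), 8-cell-like (16), O-GlcNAc cycling and hexosamine (19, OGA and OGT included), PXGL pathway signalling (32) and tripartite motif genes (125) had 0. A list describes where regions lay, not which cells were in the culture.

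**Figure D3:**
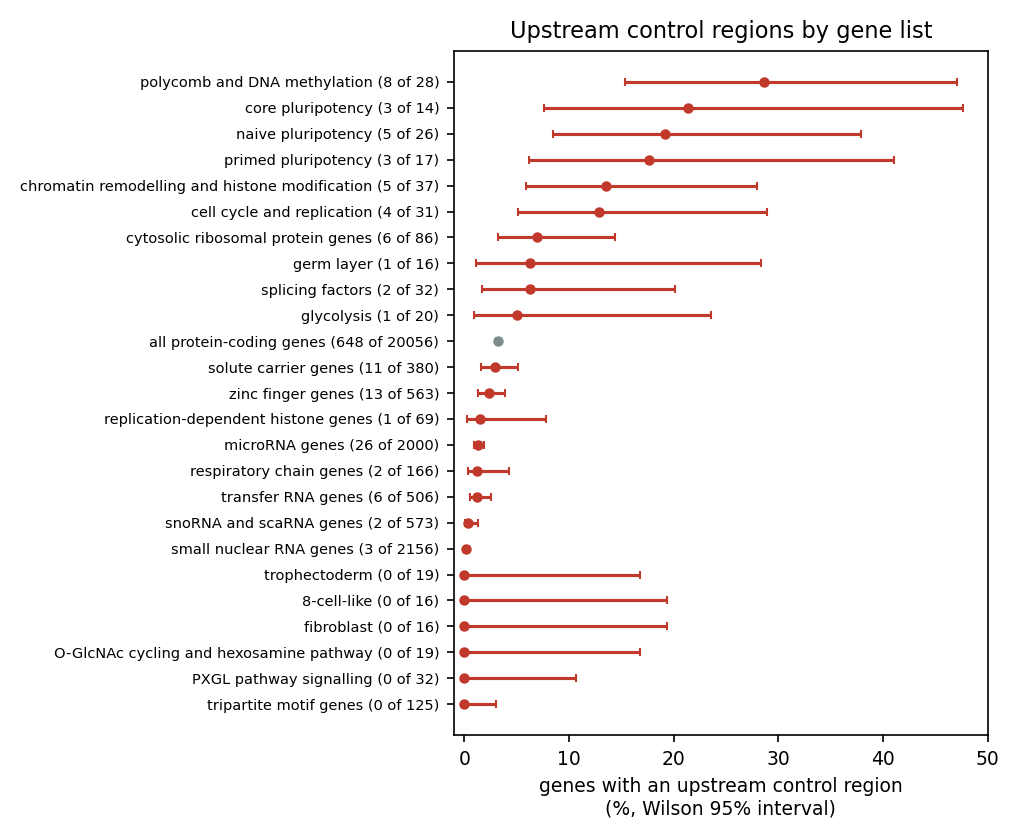
Share of genes with an upstream control region (%, Wilson 95% interval) in each gene list, with the count of genes, and in all protein-coding genes. Polycomb and DNA methylation genes are highest with 8 of 28, and 6 lists are at 0.

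The pathway column of the authors' deposited table added WNT pathway genes. Among its 8 most frequent terms at the members, Wnt signaling was attached to 18 of 845 genes (2.13%, 1.35 to 3.34), against 16 of 2501 genes of start-spanning regions (0.640%), 5 of 767 genes of downstream regions (0.652%) and 53 of 6510 genes of all control regions (0.814%). These genes were named after their values were seen. Ligands were WNT5A and WNT5B (1957 and 2207 bp wide, 1981 and 2607 bp upstream), and receptors were FZD5 (3168 bp, 55 bp from the start site) and the co-receptor LRP6 (979 bp, 541 bp). Cytoplasmic and nuclear members included DVL1, which relays the receptor signal, CTNNBIP1, which binds beta-catenin, TCF7, a DNA-binding partner of beta-catenin, and the ubiquitin ligase gene RNF43, which lowers receptor levels. Knockdown regions overlapped members at 2 of the 18 genes, FBXW11 and TBL1XR1, a corepressor gene, near the 8.48% of all members. The most frequent term, Pathways in cancer, was attached to 4.14% of genes of upstream, 2.08% of start-spanning and 2.43% of all control regions, and some genes carry several terms. The neurodegeneration term was attached to 2.84% of genes of upstream and 2.52% of start-spanning regions, and that for herpes simplex virus 1 infection to 16 of 845 and 65 of 2501 genes, a lower share in the upstream set. The term for pluripotency signalling was attached to 16 of 845 genes (1.89%, 1.17 to 3.05), against 0.680% for start-spanning genes, 0.391% for downstream genes and 0.845% for genes of all control regions. Among these were BMPR2, ACVR2B and FGFR4, which are growth factor receptors, and REST. Any pathway term was attached to 35.0% of genes of upstream, 36.3% of start-spanning and 31.6% of downstream regions.

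Upstream regions were next set against the knockdown list. A knockdown region overlapped 74 of the 873 members by at least 1 bp (8.48%, Wilson 95% interval 6.81 to 10.5), against 901 of all 8977 control regions (10.0%). The share was 11.7% (299 of 2554) for start-spanning regions, 6.88% (5.31 to 8.87) for downstream promoter regions and 9.95% for regions outside promoters. The share of the members was thus near that of the whole list. It was similar at all distances, at 8.21%, 8.74%, 8.68% and 8.33% in the 4 distance classes from the nearest to the farthest. With the members split by width into 4 groups, it was 7.31% and 5.05% in the narrower groups, 9.59% in the third and highest in the widest, with 26 of 217. Members with a knockdown overlap were wider, with a median of 1735.5 bp, against 1499 bp for those without. By chromosome 16 of the 74 were on chromosome 19, where 18.0% of 89 members and 12.3% of 595 control regions were overlapped. On chromosome 12 the shares were 17.9% of 56 members and 10.3% of 580 control regions, on chromosome 18 they were 21.4% of 14 members and 10.9% of 138 control regions, and on chromosome 16 they were 0 of 49 members and 8.33% of 468 control regions. The knockdown list held far fewer regions than the control list (1334 against 8977), and a region needed a peak in both replicates to be listed, so a member without overlap may still have had a peak in a single knockdown library.

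**Figure D4:**
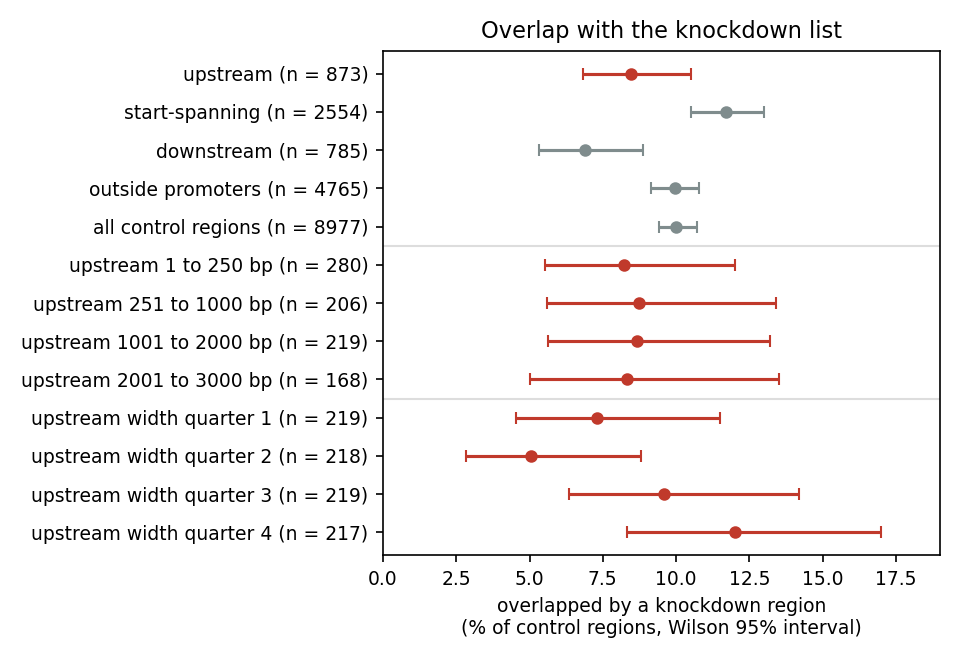
Share of control regions overlapped by a knockdown region (%, points) with Wilson 95% intervals (bars) for upstream regions, for the other classes, and for upstream regions by distance and by width in 4 groups (1 narrowest). Upstream regions stand at 8.48% and all control regions at 10.0%, and the 4 distance classes lie between 8.21 and 8.74%.

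The knockdown regions were short segments within the control regions, as knockdown regions were in every class: the median width was 727 bp over all 1334 knockdown regions and 1577 bp over all 8977 control regions. The 74 members formed 75 pairs, since FBXW11, a gene of an SCF ubiquitin ligase subunit, had 2 knockdown regions (1036 and 570 bp) inside a control region of 2912 bp. The knockdown region had a median width of 686 bp (quartiles 532.5 and 847), against 1754 bp (1258 to 2405) for the control region in the same pairs. It was narrower in 73 of 75 pairs and lay wholly inside the control region in 62. It covered a median of 40.1% of the control region. Its nearer edge was farther from the start site than the control edge in 64 pairs, with a median distance of 1480 bp in the knockdown and 879 bp in control. In the 62 pairs where it lay inside, that edge could not be closer, so this largely follows from the narrower width. The centres showed no common direction: the knockdown centre lay nearer to the start site in 42 pairs and farther in 33, with a median shift of 86 bp toward the start. All 75 knockdown regions were assigned to the same gene as the control region.

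Most of the shorter segments kept the annotation class. Of the 75 knockdown regions, 59 were themselves upstream promoter regions and 13 fell outside the promoter limit. At CERS5, a ceramide synthase gene, and at DNM2 the knockdown region covered the start site, by an edge 38 and 8 bp past it, whereas the control region ended 9 and 7 bp short. At A4GALT the knockdown region was annotated to another start as downstream. At RPS19 the knockdown region (835 bp) covered 75.8% of the control region (1102 bp) and ended 145 bp from the start. At REST it covered 32.4% (511 of 1579 bp) and ended 130 bp from the start, within 11 bp of the control edge.

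**Figure D5:**
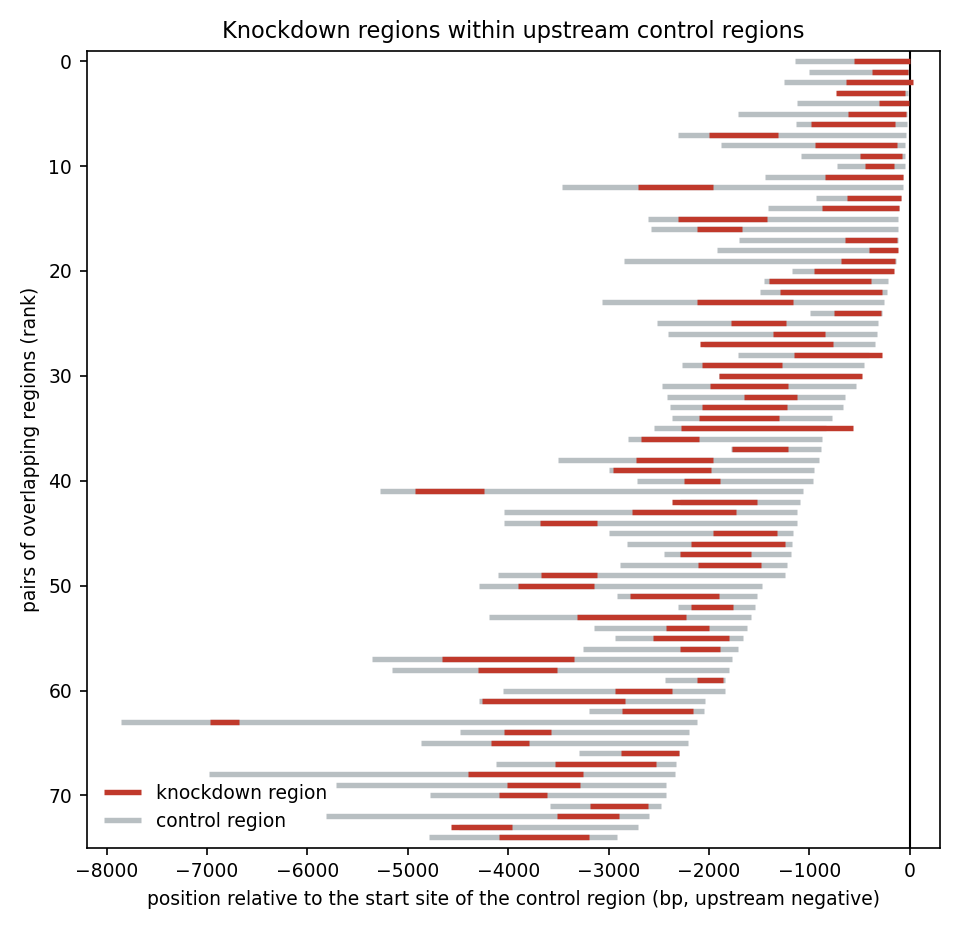
The 75 pairs of a knockdown region and the upstream control region it overlapped, against the distance from the start site of the control region (bp, upstream negative), sorted by the control edge. Knockdown regions are shorter, with a median width of 686 bp against 1754 bp, and 62 lie wholly inside the control region.

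The widest members overlapped by a knockdown region included noncoding RNA genes. The widest, at the ribosomal protein pseudogene RPL23AP43, lay on chromosome 3 from 32777781 to 32783513 (5733 bp, 2121 bp upstream), and the knockdown region covered 5.18% of it. NEAT1, the long noncoding RNA that scaffolds paraspeckles, had a region 2334 bp upstream on chromosome 11 (65415815 to 65420464, 4650 bp), of which 24.5% was covered. The region before LOC107984338 (3219 bp) began 5514 bp beyond it on the same chromosome and was also overlapped. It thus lay past the NEAT1 start site, on the side toward which NEAT1 is transcribed, and may lie within the NEAT1 gene. LRRC23 (4216 bp), WEE1, the kinase gene that restrains CDK1 (3585 bp), PHC1 (3392 bp), TRAPPC8 (3355 bp) and MIR21 (3290 bp) followed, with 16.3% to 36.6% of the region covered. The widest members without overlap were at GAS2L1 (chromosome 22, 29300438 to 29305408, 4971 bp), HM13-AS1 (4784 bp), ACTB, the cytoplasmic beta-actin gene (4264 bp), CDK3 (4229 bp), MIR326 (4200 bp), LOC105370659 (4026 bp), MEF2D (3979 bp) and PLCB3 (3881 bp).

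MicroRNA genes are shown for their sequences. Of the 25 members there 3 had a knockdown overlap, near the 8.48% of all members and the 10.0% of all control regions. Their mature sequences from RefSeq (GRCh38.p14) are given with the seed, bases 2 to 8, in capitals, and the 3 seeds differ.
MIR21: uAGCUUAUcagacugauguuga
MIR320C1: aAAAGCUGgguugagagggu
MIR935: cCAGUUACcgcuuccgcuaccgc
The region before MIR21, whose product miR-21-5p is among the widely expressed microRNAs, was 3290 bp wide and 2427 bp upstream. Those before MIR320C1 and MIR935 were 1306 and 2079 bp wide and 409 and 330 bp upstream. Regions without overlap at microRNA genes included MIR326, MIR4710 (2868 bp) and MIR3529 (2731 bp). A region near a microRNA gene within a longer host transcript need not mark the start of its transcription.

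Upstream regions were also counted within the knockdown list. They made up 152 of all 1334 knockdown regions (11.4%, 9.80 to 13.2) and 873 of all 8977 control regions (9.72%, 9.13 to 10.4), with overlapping intervals, while start-spanning regions made up 19.8% in the knockdown and 28.5% in control. Of promoter regions alone there were 152 among 521 knockdown promoter regions (29.2%, 25.4 to 33.2), against 873 of 4212 in control (20.7%, 19.5 to 22.0), while start-spanning regions took 50.7% in the knockdown and 60.6% in control. The median width of upstream regions was 631.5 bp in the knockdown and 1512 bp in control, so the lists also differed in width. Of the 152, 59 (38.8%) overlapped an upstream control region, 53 (34.9%) overlapped a start-spanning control region and 40 (26.3%) overlapped none. A control region was met by 73.7% of these 152, against 69.0% of all 1334 knockdown regions and 88.6% of the start-spanning knockdown regions. Among the 845 genes with an upstream control region 84 (9.94%, 8.10 to 12.1) had a knockdown promoter region and 142 (16.8%) any knockdown region, against 11.9% with a knockdown promoter region among genes with a start-spanning control region and 9.91% among genes with a downstream region.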

How the data were processed

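CUT&Tag for OGA was analysed from 2 OGA knockdown and 2 control libraries of H9 cells. Groups and replicate numbers came from the sample titles. The authors deposited 1 annotated region list per group, which per the file headers gives position, width in bp and signed distance to the start site in bp (both other units, with no count, signal or score). Build GRCh38.p13 and the tools ChIPseeker 1.12.1, edgeR, DESeq2, SEACR 1.3 and Bowtie2 2.3.4.3 appear, with no role given, in the submitters' processing notes. The 8978 control lines held 8977 distinct regions.

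Overlap meant at least 1 bp. Intervals of shares are Wilson 95% intervals and cover only counting error. No test was made because each group has 1 merged list; regions are not replicates. A planned edgeR count test was not run, since the lists hold no counts. Of 845 gene names 824 matched the RefSeq table of GRCh38.p14, used for symbols, gene types and start site order. Promoter windows were taken only where the start site equalled the listed start to the base. Agreement of both builds at these starts was thus required by the choice and not tested.

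Members, lists and tests were chosen with earlier results of these data known. Named genes were the 8 widest members with and the 8 widest without a knockdown overlap, the 5 nearest and 5 farthest from the start site, up to 5 with more than 1 knockdown region or at least 3 regions per gene, and up to 4 per list (24 lists); 1 gene is not reported here. The printed windows, REST, DNM2, CERS5, A4GALT, B3GALT4, SREBF1, pathway genes, further list members and the 75% GC limit were chosen after their values were seen. The overlap step, tested on simulated data, recovered 74 of 74 planted overlaps among 873 regions. Scripts ran in Python 3.11.15 (pandas 2.3.3, numpy 2.4.6; figures in matplotlib 3.10.9).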

Additional observations from a re-analysis of the deposited data

How the results depend on the processing

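The share of upstream regions overlapped by a knockdown region (8.48%) stayed at 8.02% to 8.48% when overlap had to reach 50% of the shorter region, and when only primary chromosomes, promoters within 1 kb, protein-coding genes or a minimum width of 200 bp were used. It was 6.76% with centres within 500 bp, and 11.3% among members at least as wide as the median control region. With promoters within 1 kb the median width was 1404.5 bp, against 1512 bp, and the share of genes with a further promoter region was 12.5%, against 21.4%, since fewer regions count. With protein-coding neighbours the share with a divergent neighbour was 3.67%, against 11.1%. The other alternatives to those values, the 6 motif shares among genes with no start-spanning region and the GC median (69.7%; 70.5% in the same genes and 70.0% in protein-coding genes, the last chosen after seeing the data) moved less than their 95% intervals. No paired analysis was possible because each list merges both replicates, so leaving out a replicate was not possible either. Depth was unknown, which limits any reading of a region missing from the knockdown list.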
